A study of Scyliorhinus canicula with 3 samples.

Results

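Genes of the rod outer segment and of the matrix around it were followed through retinal nuclei of the small-spotted catshark, *Scyliorhinus canicula*: *prph2-l* (listed as LOC119973936), *rbp3*, *impg2a*, *rs1a*, *nxnl2* and *rbp4l*. They were chosen by symbol, 6 of the 29017 features in the files, and each had 1 row. The study profiled 1 frozen retina from each of 3 female juveniles with total lengths of 11.0, 10.5 and 11.1 cm (libraries 1, 2 and 3), all from a single condition, by droplet-based single-nucleus RNA sequencing (snRNA-seq). Class differences described here are therefore differences between nuclei, or between nuclei and droplets, of the same 3 animals. Counts are unique molecular identifiers (UMIs), each standing for 1 captured RNA molecule. The libraries held 73310348, 50691314 and 71366924 UMIs.

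Rods keep their photopigment in a stack of membrane discs, the outer segment, which is built and renewed throughout life by a cell body whose nucleus lies a long way off. The outer segments stand in the interphotoreceptor matrix, an extracellular gel of proteoglycans and retinoid-binding proteins between the photoreceptors (PRs) and the pigment epithelium. In humans, mutations in the counterparts of several of these genes cause retinal dystrophies. Peripherin-2, to which *prph2-l* is related, is a tetraspanin that shapes the disc rims. Among the matrix genes, *rbp3* encodes the interphotoreceptor retinoid-binding protein, which PRs secrete, and *impg2a* is named after the matrix proteoglycan IMPG2. Retinoschisin, the mammalian counterpart of *rs1a*, is a secreted adhesion protein made by PRs and bipolar cells. The thioredoxin-like family of *nxnl2* holds the rod-derived cone viability factors described in mouse, and *rbp4l* is named for its likeness to *rbp4*, the plasma carrier of retinol.

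In build sScyCan1.1 the 6 genes lay on 5 chromosomes and no other annotated gene overlapped them. The shortest was *nxnl2*, of 4371 bases (chromosome 8, 76392602 to 76396972), followed by *prph2-l*, of 8628 bases (chromosome 1, 262763252 to 262771879), and *rbp3*, of 16272 bases (chromosome 22, 20517133 to 20533404). The middle of the range was taken by *rbp4l*, of 24352 bases (chromosome 3, 227299520 to 227323871), and *rs1a*, of 29156 bases (chromosome 7, 100225579 to 100254734). By far the longest was *impg2a*, which spans 91523 bases (chromosome 7, 37535072 to 37626594) and is longer than 74.8% of the 26217 genes in the reference table. Reads over introns were counted together with those over exons.

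After quality filtering, doublet removal and 2 rounds of clustering, 17759 nuclei fell into 23 clusters. The 6 genes were kept out of the features used for clustering, so that no nucleus was placed by their levels. Of these, 3 clusters were rod-like (4008 nuclei, 1114, 959 and 1935 in libraries 1 to 3), and 2 clusters (3780 nuclei, 1619, 1076 and 1085) were PR precursor-like, a name that rests on 3 marker genes. The remaining 9971 nuclei (2308, 2112 and 5551) are called other nuclei. Rhodopsin (*rho*, LOC119973199) averaged 20558 ± 992 CPM (counts scaled to a class total of 1000000 UMIs; SD, n = 3) in rod-like and 5640 ± 928 CPM in PR precursor-like nuclei, while *nr2e3*, a transcription factor of rod precursors, was higher in the latter (461 ± 227 against 158 ± 48.3 CPM). Both genes belong to the marker lists that named these clusters, so their contrast is no separate support for the names. Another precursor marker, *neurod1*, had 648, 259 and 295 CPM in PR precursor-like and 392, 206 and 284 CPM in rod-like nuclei. A cone marker, *cnga3a*, was also higher in PR precursor-like nuclei (22.1, 11.8 and 46.5 CPM against 1.25, 1.29 and 2.90 CPM). Near-empty droplets were taken from the barcodes of 200 or more features, as those at or below their median UMI count, and numbered 34947, 26769 and 32186, with a median of 390, 305 and 481 UMIs. They served as a view of RNA outside the kept nuclei. Their *rho* was 37776, 14499 and 11627 CPM, against 20280, 19735 and 21660 CPM in rod-like nuclei. Whether they also hold fragments of cells or nuclei was not tested. Between 1 and 16 barcodes of nuclei were shared by any pair of libraries.

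All 6 genes were at their highest, among the 10 named classes, in rod-like nuclei, and 5 of the 6 lay between 5.11-fold and 6.58-fold above the other nuclei in the fitted comparison. The gene with the highest level was *prph2-l*, with 1574, 1617 and 1705 CPM in rod-like nuclei against 239, 420 and 309 CPM in other nuclei (libraries 1, 2 and 3). For *rbp3*, the lowest of the 6, rod-like nuclei held 183, 157 and 162 CPM and other nuclei 32.0, 39.6 and 31.1 CPM. In both genes every rod-like value lay above every value of the other nuclei, and the rod-like values of the 3 animals were close to one another. The matrix proteoglycan gene *impg2a* reached 662, 639 and 515 CPM in rod-like and 45.9, 100.2 and 105 CPM in other nuclei. For *rs1a*, the values were 610, 577 and 911 CPM against 89.2, 141 and 191 CPM. Neither pair of ranges overlapped. The thioredoxin-like gene *nxnl2* varied most between libraries in absolute terms, at 917, 604 and 1524 CPM in rod-like nuclei against 198, 214 and 333 CPM in other nuclei. The mix of the 3 rod-like clusters, described below, differed by library. One of them, called *rho*-led and high in *nxnl2*, gave 108 of 1114, 116 of 959 and 538 of 1935 rod-like nuclei. How far this mix moves the rod-like levels was not tested. Library 1 was the low one for *rbp4l*, with 340, 808 and 913 CPM in rod-like and 53.8, 192 and 213 CPM in other nuclei. The whole rod-like range lay above that of other nuclei for 6 of 6 genes and for 11.1% of all genes tested.

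The comparison was tested with edgeR's quasi-likelihood test on UMI sums per library, with the library as a block, and a gene was called at an adjusted p under 0.05 and a log2 fold change of at least 1. Every one of the 6 genes was called higher in rod-like than in other nuclei, where 8.79% of the 17813 genes tested were called higher and 14.8% lower. The largest difference was that of *impg2a*, with a log2 fold change of 3.34 ± 0.33 (SE; 10.1-fold; edgeR adjusted p = 2.26e-06). It was 2.72 ± 0.30 for *prph2-l* (edgeR adjusted p = 6.39e-06), 2.67 ± 0.27 for *rs1a* (edgeR adjusted p = 2.94e-06) and 2.63 ± 0.35 for *rbp3* (edgeR adjusted p = 3.28e-05). The smallest were 2.59 ± 0.28 for *rbp4l* (edgeR adjusted p = 4.63e-06) and 2.35 ± 0.31 for *nxnl2* (edgeR adjusted p = 3.53e-05). The median log2 fold change of all genes tested was 0.14. Because the classes were built from other genes of the same nuclei, the p-values between classes come out too small, by how much was not tested.

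**Figure D1:**
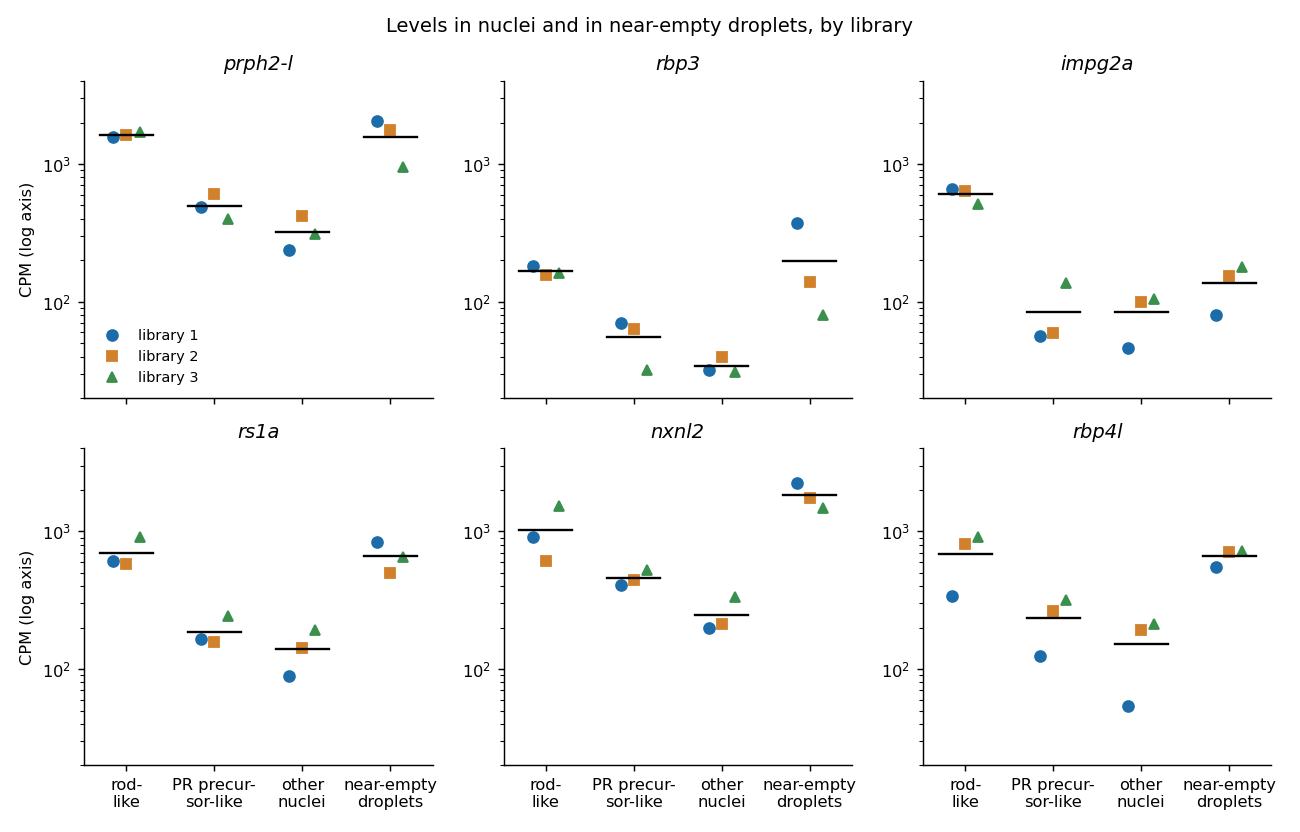
Level of each of the 6 genes (CPM, log axis) in rod-like nuclei, PR precursor-like nuclei, other nuclei and near-empty droplets. Each point is 1 library (n = 3) and the bar is the mean of the 3. Rod-like points sit above those of both other kinds of nuclei in every panel, while the droplets reach into or above the rod-like range in every panel but that of *impg2a*.

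PR precursor-like nuclei held less of each gene than rod-like nuclei. Their levels were 489, 604 and 400 CPM for *prph2-l*, 411, 441 and 521 CPM for *nxnl2*, and 125, 263 and 319 CPM for *rbp4l*. For the other genes they were 164, 156 and 242 CPM (*rs1a*), 70.6, 63.6 and 31.8 CPM (*rbp3*) and 56.5, 59.0 and 138 CPM (*impg2a*). Every gene was called lower than in rod-like nuclei (6 of 6, where 7.4% of genes were called lower and 6.93% higher). The deepest fall was again that of *impg2a*, whose log2 fold change was -3.32 ± 0.33 (edgeR adjusted p = 7.86e-06). The shallowest was that of *nxnl2*, at -1.41 ± 0.31 (edgeR adjusted p = 0.00392), and the other 4 lay between -2.22 and -1.85. The call for *nxnl2* held in only 15 of 17 alternative settings. A clustering resolution of 0.3 was among those that lost it, with a log2 fold change of -0.76 (edgeR adjusted p = 0.0805).

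Against other nuclei, by contrast, none of the 6 genes was called in PR precursor-like nuclei (0 of 6 with edgeR, where 4.46% of genes were called higher and 10% lower, and 0 of 6 with DESeq2). An unadjusted p under 0.05 was found for 3 of the 6 with either tool. The log2 fold change was largest for *nxnl2*, at 0.94 (95% interval 0.29 to 1.58; edgeR adjusted p = 0.0364), short of the fold limit. Without library 3 it was 1.12 and called. At the other end stood *impg2a*, with 0.03 (95% interval -0.64 to 0.69; edgeR adjusted p = 0.967). Over 17 alternative settings this value ranged from -0.16 to 0.48 and was called in none. The other nuclei include an unnamed cluster led by *asmt*, described below, whose *impg2a* is high. The 4 others ranged from 0.44 to 0.73.

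Across the 10 named classes the order of the levels was much alike from gene to gene. Rod-like nuclei came first and PR precursor-like nuclei second in all 6. The ranges over libraries of these first 2 classes did not overlap for any of the 6 genes, and the PR precursor-like range lay wholly below the rod-like one for 8.48% of all genes tested. Müller glia (MG)-like nuclei took the third place for 5 genes, with for example 374 CPM of *prph2-l* and 300 CPM of *nxnl2* on average, and bipolar cell (BC)-like nuclei took it for *impg2a* (82.7 CPM). From the second place down, the ranges over libraries were apart for only 1 step, that from PR precursor-like to MG-like nuclei in *nxnl2*. All other neighbours from there down overlapped. These ranges are not paired by library. Within each library PR precursor-like nuclei were above MG-like nuclei also for *prph2-l* (309, 446 and 367 CPM in MG-like) and *rbp4l* (79.4, 195 and 250 CPM). For *rbp3* and *rs1a* this failed in library 3. Cholinergic amacrine cell (AC)-like or retinal ganglion cell (RGC)-like nuclei stood last, with 231 CPM of *prph2-l* and 46.4 CPM of *impg2a*. The RGC-like class joins a deep and a shallow cluster (median 7415.5 and 1124 UMIs), and the order does not hold for the shallow one. Relative to droplets it averaged 0.449 (*prph2-l*) and 0.341 (*nxnl2*), above PR precursor-like nuclei (0.336 and 0.263). So did *rbp3*, *rs1a* and *rbp4l*, while *impg2a* was lower (0.533 against 0.619). Unnamed clusters were left out of this order. Those led by *asmt* and by *enpp2*, described below, had levels that would break it for some genes, *impg2a* and *nxnl2* among them.

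On average, the 6 genes stood in a different order in near-empty droplets than in rod-like nuclei. In the droplets *nxnl2* took 2249, 1758 and 1465 CPM, the highest level of the 6 genes on average, and *prph2-l* took 2051, 1750 and 947 CPM. In library 3 *nxnl2* was above *prph2-l* also in PR precursor-like (521 against 400 CPM) and in other nuclei (333 against 309 CPM). The droplets held 839, 497 and 649 CPM of *rs1a* and 548, 710 and 724 CPM of *rbp4l*. For *rs1a* these values overlapped with those of rod-like nuclei, and for *rbp4l* all 3 lay within the rod-like range. Library 1 was the highest for *rbp3*, with 372, 138 and 80.03 CPM. The opposite order held for *impg2a*, at 80.5, 154 and 178 CPM, all of them below the lowest rod-like value.

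Compared with the droplets, rod-like nuclei had more *impg2a* in each of the 3 libraries, 8.21, 4.15 and 2.90 times as much, and the fitted log2 fold change was 2.08 ± 0.31 (95% interval 1.41 to 2.75; edgeR adjusted p = 0.00013). This was the one gene of the 6 called higher, where 13% of genes were called higher. The one called lower was *nxnl2* (log2 fold change -1.11, 95% interval -1.76 to -0.46; edgeR adjusted p = 0.00768; 20.9% of genes were called lower), with ratios of 0.408, 0.344 and 1.04. The call for *nxnl2* did not survive leaving out library 1 (log2 fold change -0.91) or library 2 (-0.81), keeping the 6 genes in clustering (-0.99), scaling by library size only (-0.94) or dropping the library block (edgeR adjusted p = 0.0519). Against droplets of 20 to 100 UMIs its direction turned, to 0.46 (edgeR adjusted p = 0.26). No difference was detected for *prph2-l* (-0.08, 95% interval -0.69 to 0.53; edgeR adjusted p = 0.826), *rs1a* (-0.13; edgeR adjusted p = 0.685), *rbp3* (-0.19; edgeR adjusted p = 0.653) or *rbp4l* (-0.28; edgeR adjusted p = 0.391). For each of these genes the libraries went different ways. The mix of rod-like clusters given above differed by library too. In library 1 the rod-like level was 0.768 (*prph2-l*), 0.491 (*rbp3*), 0.727 (*rs1a*) and 0.620 (*rbp4l*) of that in the droplets. In the same order, it was 0.924, 1.14, 1.16 and 1.14 times that level in library 2 and 1.80, 2.02, 1.40 and 1.26 times in library 3.

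Both other kinds of nuclei were below the near-empty droplets for every gene. In PR precursor-like nuclei 6 of 6 genes were called lower (22% of genes were called lower and 12.5% higher), with log2 fold changes from -2.53 for *nxnl2* to -1.23 for *impg2a*. In other nuclei 6 of 6 were called lower too (20.1% of genes were called lower and 15% higher), from -3.46 for *nxnl2* to -1.26 for *impg2a*. In CPM, neither class exceeded the droplets in any of the 18 pairs of gene and library. Most of these calls were lost against droplets of 20 to 100 UMIs, with 0 of 6 left in PR precursor-like and 3 of 6 in other nuclei, and *impg2a* turned to 0.23 and 0.29, neither called. Calls over all genes also fell strongly against these small droplets, so the loss is not particular to the 6 genes. The small droplets held very few *impg2a* UMIs, which limits its turned sign. Both sets of counts are given in the closing sections. The part of RNA from outside nuclei in the levels of PR precursor-like and other nuclei was not tested.

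The 3 rod-like clusters were not alike. A small one, called *rho*-led here, had 762 nuclei with a median of 1102.5 UMIs (108, 116 and 538 nuclei in libraries 1 to 3). Its leading genes against the remaining nuclei were *prph2-l* and then *rho*, and *nxnl2*, *rbp3*, *rbp4l* and *rs1a* were also among them. The 6 genes did not place its nuclei, but this list comes from the same counts as the levels that follow. The cluster held 8822, 8050 and 4638 CPM of *prph2-l*, against 1412, 1482 and 1413 CPM in cluster 2 (1637 nuclei, median 1494 UMIs) and 1081, 1080 and 940 CPM in cluster 3 (1609 nuclei, median 3311 UMIs). A further 4 genes were also higher in the *rho*-led cluster, with averages of 3826 CPM for *nxnl2*, 2147 CPM for *rbp4l*, 1772 CPM for *rs1a* and 778 CPM for *rbp3*. The corresponding averages in cluster 3 were 549, 488, 543 and 98.6 CPM. The exception was *impg2a*, which was lowest in the *rho*-led cluster, at 411 ± 154 CPM (SD, n = 3), and reached 537 ± 46.3 CPM in cluster 2 and 664 ± 59.3 CPM in cluster 3. In library 2 this order did not hold for *impg2a*, with 589 CPM in the *rho*-led cluster and 546 CPM in cluster 2. With only the *rho*-led cluster taken as rods, 5 of 6 genes were called higher than in the droplets (0.889% of genes were called higher). The exception was *nxnl2*, at a log2 fold change of 1.07 (edgeR adjusted p = 0.0742). Without that cluster *nxnl2* in rods was 1.62 below the droplets on the log2 scale. The cluster was singled out after its leading genes, 5 of the 6 among them, were seen. Its calls rest on those same counts and are no separate support. Over all genes, 157 were called higher and 53 lower in the *rho*-led cluster than in the droplets, of 17655 tested. For all rod-like nuclei these counts were 2318 and 3730 of 17813. The sums of the *rho*-led cluster are much smaller, so its fewer calls cannot show how like the droplets it is. Whether its barcodes hold whole nuclei was not tested. These clusters were drawn from the same nuclei, and their differences in level are given as a description, without a test.

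**Figure D2:**
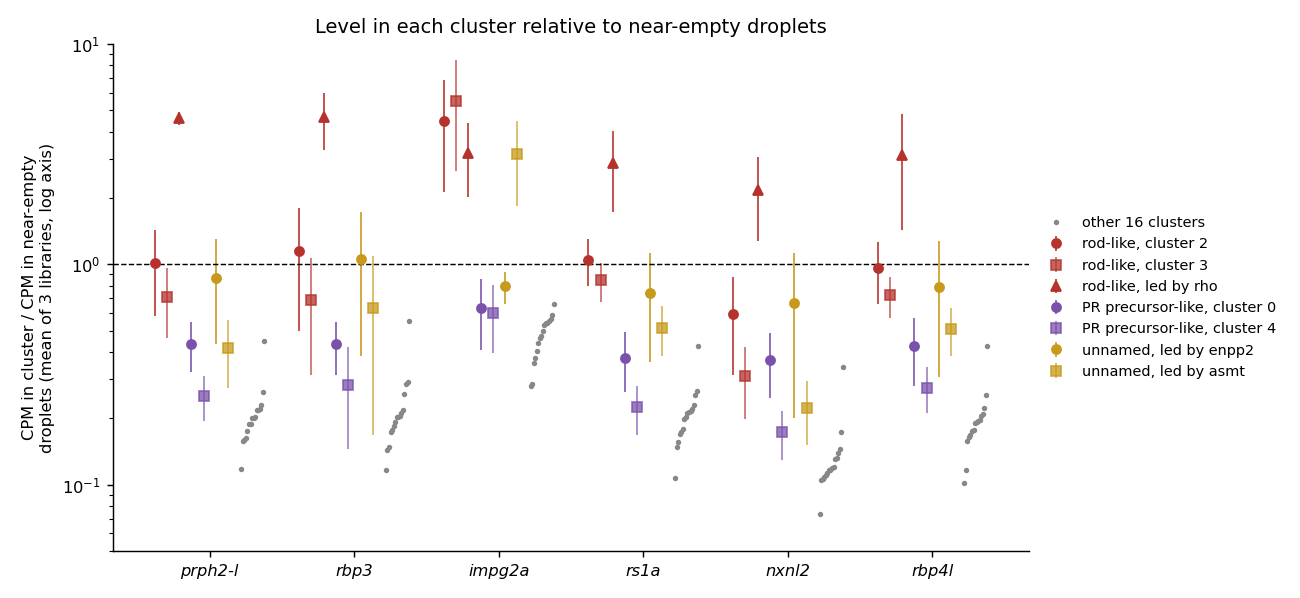
Level of each gene in each of the 23 clusters divided by the level in near-empty droplets of the same library (log axis; mean of 3 libraries, bars are SD). The dashed line marks equal levels. The *rho*-led cluster lies above the line in all 6 genes, clusters 2 and 3 lie well above it only for *impg2a* (4.49 and 5.54), and the unnamed cluster led by *asmt* joins them there (3.15).

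Within PR nuclei the 6 genes were read along a scale they are not part of, the UMIs of the rod marker list in nuclei thinned to 1000 UMIs. From nuclei with 5 to 9 such UMIs to those with 20 to 39, *impg2a* went from 0.065 to 0.568 UMIs per 1000, with values of 0.576, 0.573 and 0.555 in the 3 libraries in the latter bin. Over the same bins *prph2-l* went from 0.409 to 1.05 and *nxnl2* from 0.409 to 0.683 UMIs per 1000. In the last bin, of 40 or more, the order of the genes changed. There *prph2-l* stood at 4.31, *nxnl2* at 2.57, *rbp4l* at 1.55, *rs1a* at 1.33 and *rbp3* at 0.462 UMIs per 1000, each above its value in the bin before, while *impg2a* stood at 0.462, below it in each of the 3 libraries. The bins held 43, 303, 1050, 1745, 2319 and 1001 nuclei, and the first of them is too small to read. The scale largely follows the classes already described. Rod-like nuclei were 1, 5 and 6 of 494, 289 and 267 nuclei in the bin of 5 to 9. In that of 20 to 39 they were 742, 434 and 889 of 922, 485 and 912. The *rho*-led cluster had the highest median share of rod list UMIs (13.9, 12.2 and 8.57%). The bins are therefore not separate evidence of a gradient. Genes of the rod list were also plentiful in near-empty droplets, with 37776, 14499 and 11627 CPM of *rho* there. Whether RNA from outside nuclei moves nuclei along this scale was not tested. Nuclei under 1000 UMIs were left out, which took 0, 143 and 350 rod-like and 0, 429 and 405 PR precursor-like nuclei.

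**Figure D3:**
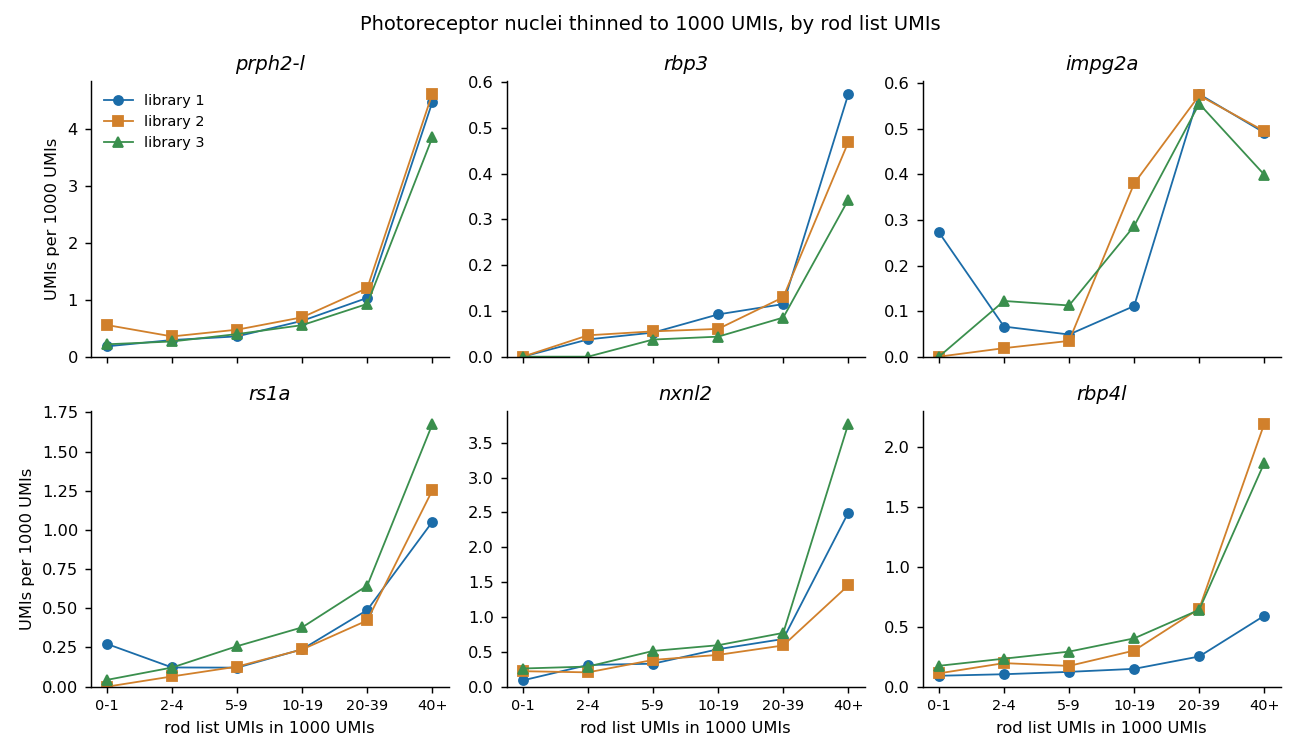
UMIs of each gene per 1000 UMIs in rod-like and PR precursor-like nuclei thinned to 1000 UMIs, against the number of those UMIs that belong to the rod marker list (bins). Each line is 1 library. The other 5 genes are highest in the last bin, and *impg2a* is highest in the bin of 20 to 39 in all 3 libraries.

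The share of nuclei with at least 1 UMI gave the same contrast between genes at equal depth. In nuclei and droplets thinned to 250 UMIs, *impg2a* was found in 15.4, 14.6 and 11.6% of rod-like nuclei (libraries 1 to 3) and in 2.00, 3.62 and 4.34% of near-empty droplets. In PR precursor-like nuclei its share was 1.79, 1.39 and 2.76%, at or under that of the droplets. For *nxnl2* the order was the other way in 2 libraries, with 19.7, 17.9 and 32.2% of rod-like nuclei and 40.9, 34.5 and 30.7% of droplets. The widest exact 95% binomial interval among these rod-like shares ran from 15.6 to 20.5% (*nxnl2*, library 2), and such intervals cover counting error only. Before thinning, 78.8, 62.8 and 53.9% of rod-like nuclei had an *impg2a* UMI, at a median depth of 3027, 1753 and 1547 UMIs, and so had 14.6, 25.4 and 24.9% of the much deeper other nuclei. Thinning left out 1576, 1240 and 93 droplets and no rod-like nucleus.

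The place of PR precursor-like nuclei depended on the scale. In CPM they exceeded other nuclei in 17 of the 18 pairs of gene and library, but per nucleus in 0 of 18. A PR precursor-like nucleus held 0.988, 0.625 and 0.817 UMIs of *nxnl2*, and an other nucleus 1.25, 1.12 and 1.36. For *impg2a* the values were 0.136, 0.0836 and 0.216 against 0.290, 0.522 and 0.427 UMIs per nucleus. Depth moved with this difference, since PR precursor-like nuclei had a median of 1937, 1139.5 and 1125 UMIs and other nuclei of 5514.5, 3827 and 3012. Rod-like nuclei were above both classes on both scales in 18 of 18 pairs, with 3.28, 1.47 and 3.26 UMIs of *nxnl2* and 2.37, 1.56 and 1.101 UMIs of *impg2a* per nucleus. A near-empty droplet held 0.689, 0.501 and 0.651 UMIs of *nxnl2* and 0.0247, 0.0439 and 0.0790 UMIs of *impg2a*.

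In most clusters outside rods, *nxnl2* varied much less per nucleus than in CPM. Over 16 clusters of no PR class (2 unnamed clusters led by *asmt* and by *enpp2* were set apart), median depth ranged 6.60-fold, from 1124 to 7415.5 UMIs, and *nxnl2* ranged 4.71-fold in CPM (126 to 594) but 1.65-fold per nucleus (0.921 to 1.52). Of the clusters set apart, the *asmt*-led one held 393 CPM and 1.25 UMIs per nucleus, and the *enpp2*-led one, at 1094 CPM and 2.41 UMIs per nucleus, lay above both ranges. The 2 RGC-like clusters were the extremes of depth. The shallow one held 594 CPM and the deep one 126 CPM of *nxnl2*, yet per nucleus they held 1.08, 0.758 and 0.940 against 1.13, 0.897 and 1.19 UMIs. The 2 PR precursor-like clusters showed the same, with 640 CPM at a median of 1132 UMIs and 305 CPM at a median of 2220.5 UMIs, but 0.813 ± 0.195 and 0.815 ± 0.176 UMIs per nucleus (SD, n = 3). For *impg2a* it was the other scale that varied less, with 2.42-fold in CPM (39.4 to 95.3) and 6.25-fold per nucleus (0.113 to 0.708) over the 16 clusters. The remaining 4 genes ranged 3.96 to 5.65-fold in CPM and 2.34 to 2.61-fold per nucleus. Across these clusters Spearman's rho of depth with CPM was -0.83 for *nxnl2* and -0.29 for *impg2a*. With UMIs per nucleus it was 0.68 and 0.50, so both genes rose with depth on that scale. These are descriptions over 16 points that come from the same 3 libraries.

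**Figure D4:**
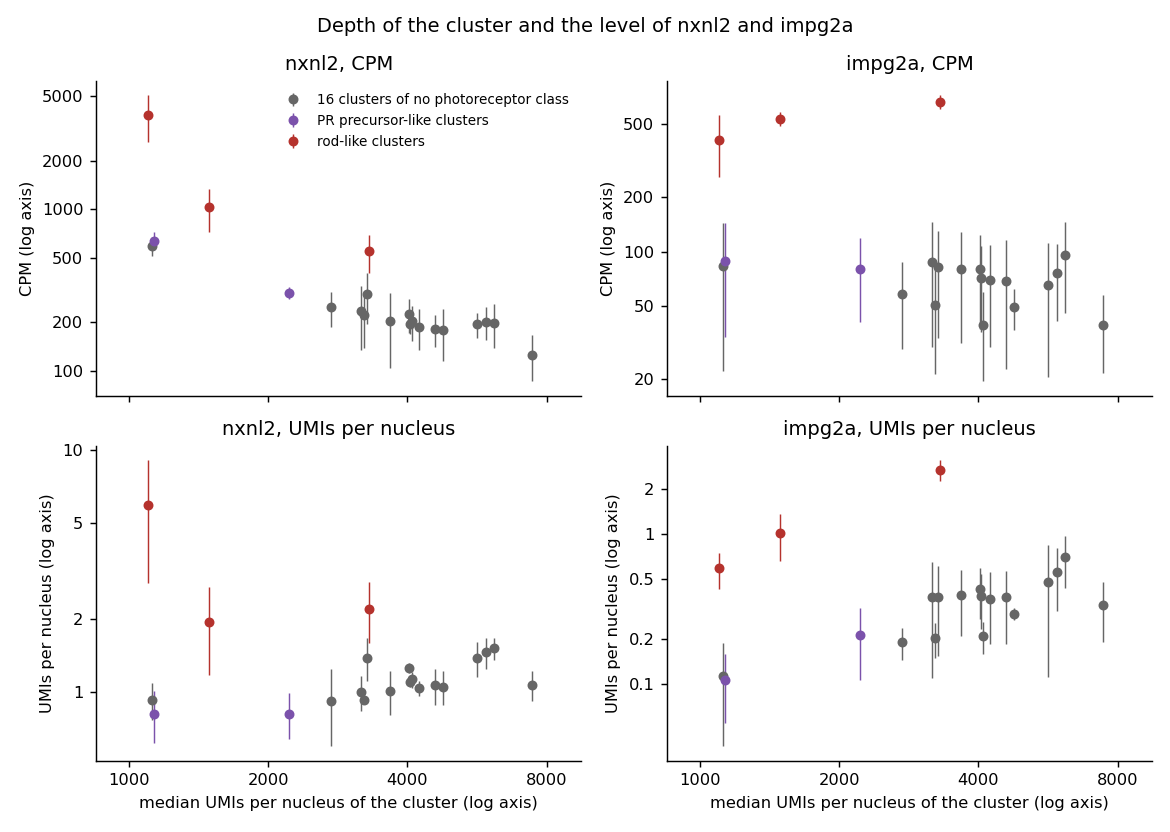
Level of *nxnl2* (left) and *impg2a* (right) in the 16 clusters of no PR class, the PR precursor-like and the rod-like clusters against the median depth of their nuclei (log axes), as CPM (top) and as UMIs per nucleus (bottom). Points are means of 3 libraries and bars are SD. In the clusters shown other than rods, *nxnl2* falls with depth in CPM and lies between 0.813 and 1.52 UMIs per nucleus, whereas *impg2a* is spread more evenly in CPM. Over the 16 clusters, *nxnl2* per nucleus rises with depth (Spearman's rho 0.68).

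The proportions among the 6 genes also varied between the kinds of barcode. In near-empty droplets *impg2a* made up 1.31, 3.07 and 4.40% of the UMIs of the 6 genes, in PR precursor-like nuclei 4.29, 3.72 and 8.33%, in other nuclei 6.97, 9.05 and 8.86%, and in rod-like nuclei 15.4, 14.5 and 8.98%. Its share was thus lowest in the droplets in each library, though PR precursor-like nuclei were close to them in library 2, and the kinds of nuclei differed little in library 3. Among rod-like nuclei it was 21.0, 21.0 and 17.1% in cluster 3 but 1.87, 3.42 and 2.33% in the *rho*-led cluster, close to the droplets. The share of *nxnl2* went the other way, with 36.6, 35.1 and 36.2% in the droplets and 21.4, 13.7 and 26.6% in rod-like nuclei. The share of *rs1a* was nearly level, at 13.7, 9.92 and 16.1% in the droplets and 14.2, 13.1 and 15.9% in rod-like nuclei. Counted over the UMIs of a gene in barcodes of at least 20 UMIs, rod-like nuclei held 26.0% of those of *impg2a* on average. By library this was 40.6, 18.8 and 18.5%. On average, rod-like nuclei held 6.44 to 10.2% of those of the other 5 genes and 5.81% of the UMIs of all genes. Near-empty droplets held 16.7% of the UMIs of *impg2a* and 27.9 to 34.0% of those of the others on average. In library 3 the droplets (22.1%) and other nuclei (20.6%) held more *impg2a* UMIs than rod-like nuclei. Barcodes of 200 or more features that were neither kept nuclei nor near-empty droplets held the most on average, 35.4% for *impg2a* and 38.8 to 42.6% for the others. They held 39.7% of the UMIs of all genes. In library 1, however, they held less *impg2a* than rod-like nuclei (31.6 against 40.6%). For *nxnl2* in library 2 they held 31.2%, against 31.6% in barcodes under 200 features.

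One cluster outside the PR classes stood out for *impg2a*. It held 627 nuclei, was led by genes that included *asmt*, an enzyme of melatonin synthesis, and *eys*, and had no name because no marker list met the limits for naming. The lists with the largest average log2 ratio were those of PR precursors (0.56) and rods (0.55), both under the limit of 0.9. The cluster's *eys* averaged 5474 CPM, against 837 CPM in the other nuclei without it. Its level of *impg2a* was 376, 388 and 403 CPM, 3.15 times that in the droplets on average, whereas its *prph2-l* was 603, 665 and 540 CPM and its *nxnl2* 436, 299 and 445 CPM, both below the droplets. Of its UMIs of the 6 genes, 18.6, 18.4 and 17.6% were those of *impg2a*, near the 21.0, 21.0 and 17.1% of rod-like cluster 3. Of marker genes, it held 7719 CPM of *rho*, 1858 CPM of *gnat1* (rod transducin) and 309 CPM of *nr2e3*. Rod-like nuclei held 20558, 4305 and 158 CPM of these, PR precursor-like nuclei 5640, 980 and 461 CPM, and the remaining other nuclei 3786, 683 and 51.2 CPM. The cluster was thus above PR precursor-like nuclei in *rho* and *gnat1* but below them in *nr2e3*. Its *impg2a* was also above theirs (56.5, 59.0 and 138 CPM). Having no name, the cluster was counted among the other nuclei. Without it, the share of *impg2a* in other nuclei, also leaving out an unnamed cluster led by *enpp2*, was 5.03, 8.95 and 9.34%, and every call of the 6 genes in rod-like against other nuclei stood.

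The *enpp2*-led cluster (802 nuclei, median 1300 UMIs) was the other one outside the PR classes with high levels, here of the 5 genes other than *impg2a*. Its largest average log2 ratio was that of the progenitor marker list (1.23). The cluster was left unnamed because its leading genes included *pmela*, of the pigment epithelium list (0.88). It held 886, 1527 and 1234 CPM of *prph2-l* and 535, 1051 and 1696 CPM of *nxnl2*. Relative to the droplets of the same library these were 0.432, 0.873 and 1.303 times (*prph2-l*) and 0.238, 0.598 and 1.16 times (*nxnl2*), lowest in library 1 and above the droplets only in library 3. For *impg2a* it stayed below the droplets in each library, at 0.764, 0.678 and 0.937 times their level. The averages over libraries for *rbp3* (1.06), *rbp4l* (0.790) and *rs1a* (0.741) lay close to or below the level in the droplets. By library the ratios were 0.343, 1.15 and 1.67 (*rbp3*), 0.241, 0.982 and 1.15 (*rbp4l*) and 0.312, 0.869 and 1.04 (*rs1a*). Each of these genes was thus above the droplets in library 3, and *rbp3* also in library 2. Against the named classes, the cluster's *nxnl2* lay above rod-like nuclei in libraries 2 and 3 (604 and 1524 CPM) and below them in library 1 (917 CPM). The cluster's *prph2-l* lay above that of PR precursor-like nuclei in each library (489, 604 and 400 CPM).

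Genes whose levels were most like those of the 6 were sought over 30 sums (10 named classes in 3 libraries) by Pearson's r of log2(CPM + 10), as a description over sums that share libraries. The closest gene to both *prph2-l* (r = 0.98) and *rbp3* (r = 0.96) was *rho*, followed for *prph2-l* by *pde6gb*, a phosphodiesterase subunit, and *ip6k1*. For *nxnl2* it was LOC119953338 (r = 0.98), then *guca1b* and *gngt1*, which act in phototransduction. The closest to *rs1a* was LOC119976787 (r = 0.98), then *grk1a*, rhodopsin kinase, and *gnat1*. LOC119976787 was also the third closest to *impg2a* (r = 0.96), after LOC119978385 and LOC119975806. For *rbp4l* the closest was LOC119970772 (r = 0.96). Among the 6 themselves r ran from 0.70 (*rbp3* with *rbp4l*) to 0.94 (*prph2-l* with *rbp3*).

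Other genes of the same compartments were read from lists that few catshark symbols matched. Of the outer segment disc list, 6 of 27 genes besides the members were tested, and 4 were called higher in rod-like than in other nuclei and also than in near-empty droplets (*abca4b*, *atp8a2*, *fscn2b* and *cdhr1a*), with a median log2 fold change of 2.68 against other nuclei and 1.45 against the droplets. The retinoid transporter gene *abca4b* had 2208, 2134 and 2138 CPM in rod-like nuclei and 1013, 868 and 744 CPM in droplets, and the phospholipid flippase gene *atp8a2* had 1887, 2068 and 1333 CPM in rod-like nuclei and 151, 424 and 488 CPM in droplets. The fourth by level, *tspan7b*, was not called in either comparison. Over all genes tested, 8.79% were higher and 14.8% lower than in other nuclei, and 13% higher and 20.9% lower than in droplets, and the counts of the lists stand beside these shares. Among 19 genes of the PR cilium, 7 were higher and none lower than in other nuclei, and 7 were higher and 1 lower than in the droplets. The most abundant were *bbs9*, with a log2 fold change of 2.04 against other nuclei and 2.38 against droplets, and *cep290*, with 1.78 and 1.36. These genes serve transport through the connecting cilium.

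From the matrix and surface list, *eys* and *crb1*, which encode large proteins of the PR surface, were called higher in rod-like nuclei both against other nuclei and against droplets, while *lrp4* was not called against other nuclei (log2 fold change -0.92). Unlike *impg2a*, *eys* was not lower in PR precursor-like than in rod-like nuclei (log2 fold change 0.16; edgeR adjusted p = 0.848) and was called higher there than in other nuclei (2.24; edgeR adjusted p = 0.00123). Its levels were 6702, 3918 and 3804 CPM in PR precursor-like and 4130, 3657 and 2644 CPM in rod-like nuclei. Of 10 retinoid genes tested, 2 were higher and 2 lower in rod-like than in other nuclei, and none was higher and 3 lower than in droplets. The retinol dehydrogenase gene *rdh8a* had 191, 155 and 207 CPM in rod-like nuclei and 185, 191 and 127 CPM in droplets, a log2 fold change of -0.04. Of 12 redox genes, 2 were higher and 1 lower than in other nuclei, and 1 was higher and 6 lower than in droplets, among them *glrx* (-1.84) and *prdx3* (-1.33). The most abundant of the 12, *msra*, went the other way, with 600, 344 and 425 CPM in rod-like nuclei and 139, 152 and 207 CPM in droplets. The shares over all genes tested, for both lists, were 8.79% higher and 14.8% lower than in other nuclei. Against droplets they were 13% higher and 20.9% lower.

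Gene length moved with the level in rods relative to droplets. The shortest and the longest of the 6 genes followed that order, while the 4 between them did not rise with length. This was looked at after the values of the 6 were seen. Of the 1565 genes called higher in rod-like than in other nuclei, 1564 had a length in the reference table, and Spearman's rho of length with the log2 fold change of rod-like nuclei against droplets was 0.55 across these genes, which are not independent replicates. In 4 bins of 391 genes each, from the shortest to the longest, the median log2 fold change was 0.08, 0.81, 1.14 and 1.64. The genes were picked by the same rod-like sums that are set against droplets here, which favours high values. Over all genes tested the median was -0.07. Genes outside the picked set and other kinds of nuclei were not read by length, so whether the relation is particular to rods was not tested. In the bin of the shortest genes 87 were called higher and 59 lower than in droplets, and in that of the longest 349 and 1. With 91523 bases *impg2a* is in the third bin and its 2.08 was reached or passed by 10.5% of the genes. With 4371 bases *nxnl2* is in the first, and 3.52% of the genes were at or under its -1.11. The other 4, of 8628 to 29156 bases, lay between -0.28 and -0.08. Of these, *prph2-l* (-0.08), *rbp3* (-0.19) and *rbp4l* (-0.28) share the first bin (206 to 26059 bases) with *nxnl2* and fall as length rises. The longest of the 4, *rs1a* (-0.13), is in the second bin and lies under its median of 0.81. Whether length, introns or some other property of these genes sets their place was not tested.

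**Figure D5:**
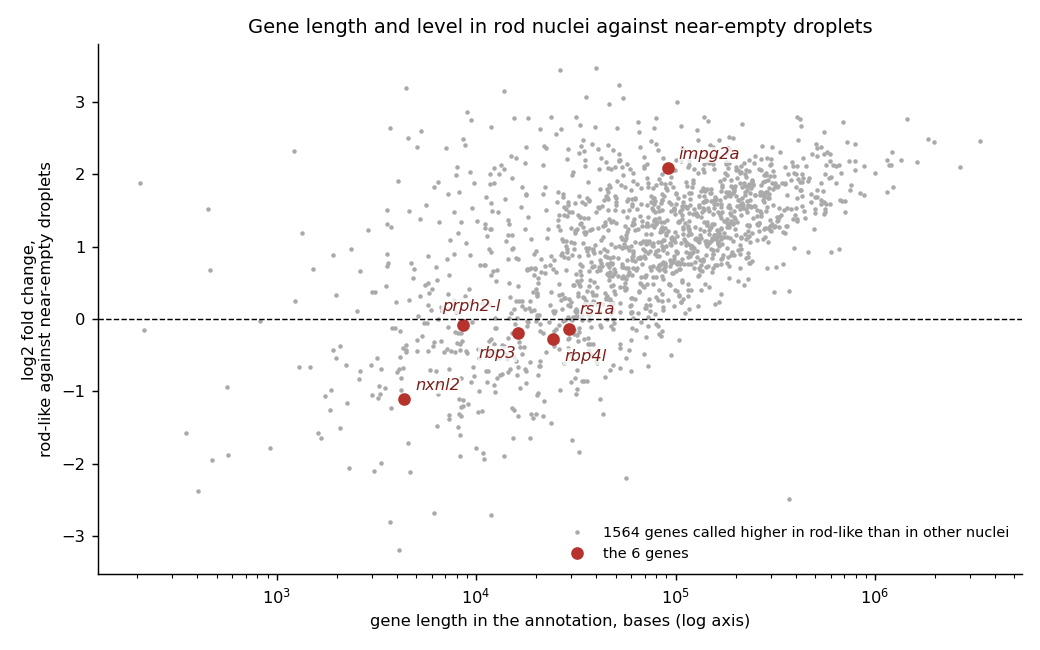
Log2 fold change of rod-like nuclei against near-empty droplets plotted against annotated gene length (bases, log axis) for the 1564 genes called higher in rod-like than in other nuclei. The 6 genes are marked. The short *nxnl2* lies at -1.11 and the long *impg2a* at 2.08. The 4 genes with lengths between theirs lie just under 0 and do not rise in order of length.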

How the data were processed

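Nuclei of 3 frozen retinas were sequenced, 1 library per animal. The authors aligned reads with STAR (2.7.10a per the labels) to build sScyCan1.1 and counted UMIs of uniquely mapped reads over whole genes, introns included. The deposited matrices hold unfiltered, unscaled UMI counts of 29017 features in all barcodes. The barcode and feature lists only name their columns and rows. Library totals were 50691314 to 73310348 UMIs, and the sums of the 6 genes in PR precursor-like nuclei went down to 54 UMIs (*rbp3*, library 3), where counting error is not small. No separate cultures were involved, and the replicate is the animal.

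Barcodes with at least 200 features, features in at least 3 barcodes, under 10% mitochondrial UMIs (37 features) and the study's limits per library were applied: UMIs between 1000 and 20000 and features between 500 and 5500 in library 1, between 500 and 24000 and between 500 and 6500 in library 2, and between 750 and 20000 and between 300 and 7000 in library 3, bounds excluded. This left 6053, 4425 and 10154 nuclei. Doublets were scored in Python 3.11.15 in the manner of DoubletFinder (rate 4%), and 206, 147 and 365 were removed. Nuclei were normalized with SCTransform v2 (sctransform 0.4.2), integrated and clustered in Seurat 5.3.0 at resolution 0.5, first with all nuclei and again after 3 clusters with over 80% of nuclei from 1 library and no name were set aside. The 6 genes and the mitochondrial features were left out of clustering. Each cluster took the name of the marker list whose genes had the largest average log2 ratio to the remaining nuclei, provided that it reached 0.9 and rested on 3 or more markers. That limit was first 1 and was lowered after a PR precursor cluster was seen just above it.

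UMIs were summed per library and kind, 12 sums in all, and fitted together with edgeR 4.0.16 (R 4.3.3; TMM, filterByExpr, quasi-likelihood test, library as a block because all kinds come from the same animals), with Benjamini-Hochberg adjustment over 17813 genes. The fit was tested on simulated counts. Levels (CPM) are counts of a gene scaled to a total of 1000000 UMIs in each sum, leaving out mitochondrial features. Alternatives were other clustering settings, doublet and mitochondrial limits, a rod gate by marker share, other droplets, DESeq2 1.42.0, other scaling and filters, no replicate block and leaving out each library. Named genes were the 6, up to 4 per list with the highest level in rod-like sums, and the 3 genes most like each member. Members and lists were chosen with earlier results of these data known. *cdhr1a* and the values of *rho*, *nr2e3*, *neurod1*, *cnga3a* and *gnat1* in the report were named beside that rule, after their values were seen. The matrix and surface list is not reported in full here.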

Additional observations from a re-analysis of the deposited data

Results flagged for a closer look

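UMIs of the 6 genes were also found in barcodes that the comparisons did not use, above the limit that a count of 0 allows. The 641 barcodes over the upper UMI or feature limits held 21536 UMIs of the 6 genes. The 1842 barcodes at or over the mitochondrial limit, 1214 of them in library 1, held 12179. Of the clusters set aside after the first round, one of 1386 nuclei (1208 in library 3) held 4674, one of 648 nuclei (588 in library 1) held 2695 and one of 121 nuclei (117 in library 1) held 414. No group was large enough (3 libraries) for a single library to be tested as standing apart.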

How the results depend on the processing

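With 3 animals, the comparisons rest on few samples. All 6 genes stayed called higher in rod-like than in other nuclei under each of 17 alternatives, and *impg2a* stayed called higher in rod-like nuclei than in droplets under each of 18 (log2 fold change 1.61 to 3.48). Taking the *rho*-led cluster alone, or leaving out that, the *asmt*-led or the *enpp2*-led cluster, was chosen after seeing the data. In rod-like nuclei against droplets, 1 gene was called instead of 2 with the 6 genes kept in clustering, with library size only and with no replicate block, the range over leaving out each library was 1 to 2, and 4 were called with droplets of 20 to 100 UMIs and 5 with the *rho*-led cluster only. Against those small droplets the PR precursor-like count was 0 and that of other nuclei 3. The small droplets held 3, 5 and 5 UMIs of *impg2a*, so depth limits them. In PR precursor-like against other nuclei, 1 gene (*nxnl2*) was called with the 6 genes kept, with rods gated by marker share and without the *enpp2*-led cluster, and the range over leaving out each library was 0 to 1.

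Signs turned for several values, among them the called *nxnl2* in rod-like nuclei against droplets (-1.11) and the called *impg2a* against droplets in PR precursor-like (-1.23) and other nuclei (-1.26). Rod-like nuclei against the small droplets gave log2 fold changes of 1.49 (*prph2-l*), 1.41 (*rbp3*), 1.84 (*rs1a*), 0.46 (*nxnl2*) and 0.98 (*rbp4l*), and the *rho*-led cluster alone against the main droplets gave 2.23, 2.15, 1.45, 1.07 and 1.53 in that order. For *impg2a*, the small droplets gave 0.23 in PR precursor-like and 0.29 in other nuclei. Library size only gave 0.089 for *prph2-l* and 0.039 for *rs1a* in rod-like nuclei against droplets. Leaving out each library ranged there from -0.42 to 0.18 (*prph2-l*), -0.67 to 0.43 (*rbp3*), -0.32 to 0.16 (*rs1a*) and -0.46 to 0.060 (*rbp4l*). In PR precursor-like against other nuclei, *impg2a* went to -0.014 at resolution 0.8, -0.068 without doublet removal, -0.067 with a mitochondrial limit of 5% and from -0.16 to 0.34 leaving out each library. The cause was not tested.

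The library block pairs kinds of sum from the same animal. Without it (no replicate block) 4380 genes were called in rod-like nuclei against droplets instead of 6048, and 1531 instead of 2580 in PR precursor-like against other nuclei. It changed no other count of the 6 genes. Without library 2 the last count was 1635. With droplets of 20 to 100 UMIs, 2848 genes were called instead of 6048 in rod-like, 2125 instead of 6149 in PR precursor-like and 2363 instead of 6266 in other nuclei against droplets. With the *rho*-led cluster only, 210 genes were called in rods against droplets, and 4149 instead of 2552 in PR precursor-like against rod-like nuclei. Scaling by library size alone moved the median log2 fold change of all genes by more than 0.1, from 0.14 to -0.21 in rod-like against other nuclei and from -0.07 to 0.11 in rod-like nuclei against droplets, and the share of calls that were higher went from 37.3 to 19.9% and from 38.3 to 51.4%. In PR precursor-like against rod-like nuclei, the median went from -0.03 to 0.29 and the share from 48.4 to 71.3%, in PR precursor-like nuclei against droplets from -0.08 to 0.43 and from 36.3 to 68.8%, and in other nuclei against droplets from 0.04 to 0.57 and from 42.8 to 75.6%.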
